A study of Saccharomyces cerevisiae with 20 samples.

Results

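The ADP/ATP carriers exchange ADP and ATP across the mitochondrial inner membrane, and budding yeast (Saccharomyces cerevisiae) encodes them in 3 paralogs, AAC1, PET9 (also called AAC2) and AAC3. The 3 genes were chosen by their symbols among the 6106 transcripts counted, and all 3 were found. The family was picked with earlier results of these libraries known, so the levels and changes of the 3 transcripts below are a description, given without p-values.

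RNA came from xrn1-H41A cells and from WT cells of the laboratory strain BY4741, grown in rich YPD medium to exponential phase. In the mutant, the exoribonuclease Xrn1 is altered by a substitution, and the study describes it as deficient in taking off NAD caps while still degrading RNA. RNA of each strain was sequenced after NADcapPro, after SPAAC and as standard RNA-seq, with 3 libraries each (18 in all). In SPAAC the enzyme ADPRC places an azide on the NAD cap. Biotin is joined to it by a copper-free click reaction and streptavidin beads pull the RNA down. The study reports that ADPRC also has residual activity on RNA whose m7G cap is followed by adenosine, so SPAAC can capture such RNA too. NADcapPro adds a prior treatment with Dcs1 that removes m7G caps. The labels also name a negative control for each strain, and the methods describe samples without ADPRC, processed to assess background noise. The 2 control libraries are not analysed here, since their names in the table do not show the strain. How much of the NADcapPro and SPAAC levels below is background was therefore not tested.

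In a cell growing by respiration the carrier brings ATP made by ATP synthase out of the mitochondrion and returns ADP to it. PET9 encodes the major yeast carrier and is needed for growth on carbon sources that must be respired. AAC1 encodes a minor form, and AAC3 is the form known to be expressed when oxygen or heme is scarce. An NAD cap is a nicotinamide adenine dinucleotide at the 5' end of an RNA in place of the m7G cap.

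All 3 genes have 1 exon and overlap no other annotated gene (assembly R64). AAC1 (YMR056C) lies on chromosome XIII, from 387315 to 388244, minus strand. PET9 (YBL030C) lies on chromosome II, from 163041 to 163997, minus strand. AAC3 (YBR085W) lies on the same chromosome, from 415983 to 416906, plus strand. The transcripts counted are the coding sequences alone, of 930, 957 and 924 bases for AAC1, PET9 and AAC3, so differences in length between the 3 are small.

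The stretch below holds the run of arginine and methionine codons (agaagaag and atgatgatg, parted by a base that differs) known as the signature of ADP/ATP carriers. It is shown to let the 3 coding sequences be told apart by eye, 5' to 3' on the coding strand, with capitals at each of the 16 positions of 60 where they are not all alike. AAC1 is from chrXIII:387480-387539, PET9 from chrII:163206-163265 and AAC3 from chrII:416682-416741.
AAC1: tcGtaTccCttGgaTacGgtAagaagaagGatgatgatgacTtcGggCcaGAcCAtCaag
PET9: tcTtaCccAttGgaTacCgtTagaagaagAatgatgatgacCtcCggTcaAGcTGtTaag
AAC3: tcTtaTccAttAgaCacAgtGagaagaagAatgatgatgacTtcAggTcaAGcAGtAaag

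PET9 and AAC3 are the closest pair, with 78.0% of aligned bases identical, against 69.4% for AAC1 and PET9 and 67.0% for AAC1 and AAC3. The longest run of bases shared by any pair is 20, in PET9 and AAC3. One such run lies in the signature stretch above, and another, with the bases around it (chrII:163296-163335 and chrII:416612-416651), is shown here as a place where 2 carriers are most alike, with capitals at the 6 positions that differ.
PET9: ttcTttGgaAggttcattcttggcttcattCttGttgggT
AAC3: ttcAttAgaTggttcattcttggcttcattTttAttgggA
Every 31-base word of each transcript (900 in AAC1, 927 in PET9 and 894 in AAC3) occurred in no other transcript of the reference, so no word of that length was shared between them.

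Libraries of the 2 strains held 13038320 to 33816015 counts (median 27409566), which sets the precision of the low values below. Among the marker genes listed as deleted in the strain background, counts were at or near 0 for LEU2 (0 to 4), URA3 (0 to 2) and MET17 (0). HIS3, which the genotype also lists, was counted in every library (1239 to 17570), and the cause was not tested. XRN1 was counted in every library too (1200 to 13775), since a substitution is not seen in counts. Replicate libraries differed by more than sampling noise, with a chi-square per transcript of 3.05 to 13.2.

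Of the 3 ADP/ATP carrier transcripts, AAC1 stood highest in NADcapPro relative to the other assays, and its level there differed most, in proportion, between strains. Levels are given in TPM, counts corrected for effective length and scaled to the same sum in every library, which allows genes to be compared. AAC1 was at 57.5, 53.7 and 56.4 TPM in xrn1-H41A NADcapPro, against 11.6, 9.27 and 11.3 TPM in xrn1-H41A RNA-seq. In WT NADcapPro it was at 22.8, 22.0 and 24.1 TPM, against 10.3, 8.92 and 10.2 TPM in WT RNA-seq. Neither NADcapPro group overlapped any other group, and the RNA-seq libraries of the 2 strains overlapped. In SPAAC, AAC1 was at 5.96, 6.76 and 5.99 TPM in xrn1-H41A and at 6.51, 6.24 and 6.22 TPM in WT. In TPM these 6 libraries were the lowest, below every RNA-seq library, and the strains overlapped.

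PET9 was by far the most abundant of the 3 in every library and varied least between groups. It was at 292, 282 and 306 TPM in xrn1-H41A NADcapPro, at 278, 297 and 289 TPM in xrn1-H41A SPAAC and at 279, 281 and 311 TPM in xrn1-H41A RNA-seq. The 3 assays overlapped in this strain. In WT, PET9 was at 209, 212 and 214 TPM in NADcapPro, at 237, 227 and 228 TPM in SPAAC and at 297, 285 and 271 TPM in RNA-seq. The 3 assays did not overlap in WT, with NADcapPro lowest and RNA-seq highest in TPM. The fitted values below, which are scaled otherwise, place SPAAC above RNA-seq.

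AAC3 shared the high level in NADcapPro with AAC1 but not the difference between strains. It was at 26.5, 29.9 and 28.2 TPM in xrn1-H41A NADcapPro, against 13.4, 13.5 and 11.7 TPM in xrn1-H41A RNA-seq. In WT it was at 29.1, 27.6 and 28.2 TPM in NADcapPro, against 15.6, 14.1 and 15.3 TPM in RNA-seq. The NADcapPro libraries of the 2 strains overlapped and all 6 lay above every other library. In SPAAC, AAC3 was at 11.2, 10.98 and 12.2 TPM in xrn1-H41A and at 12.5, 12.4 and 12.8 TPM in WT.

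**Figure D1:**
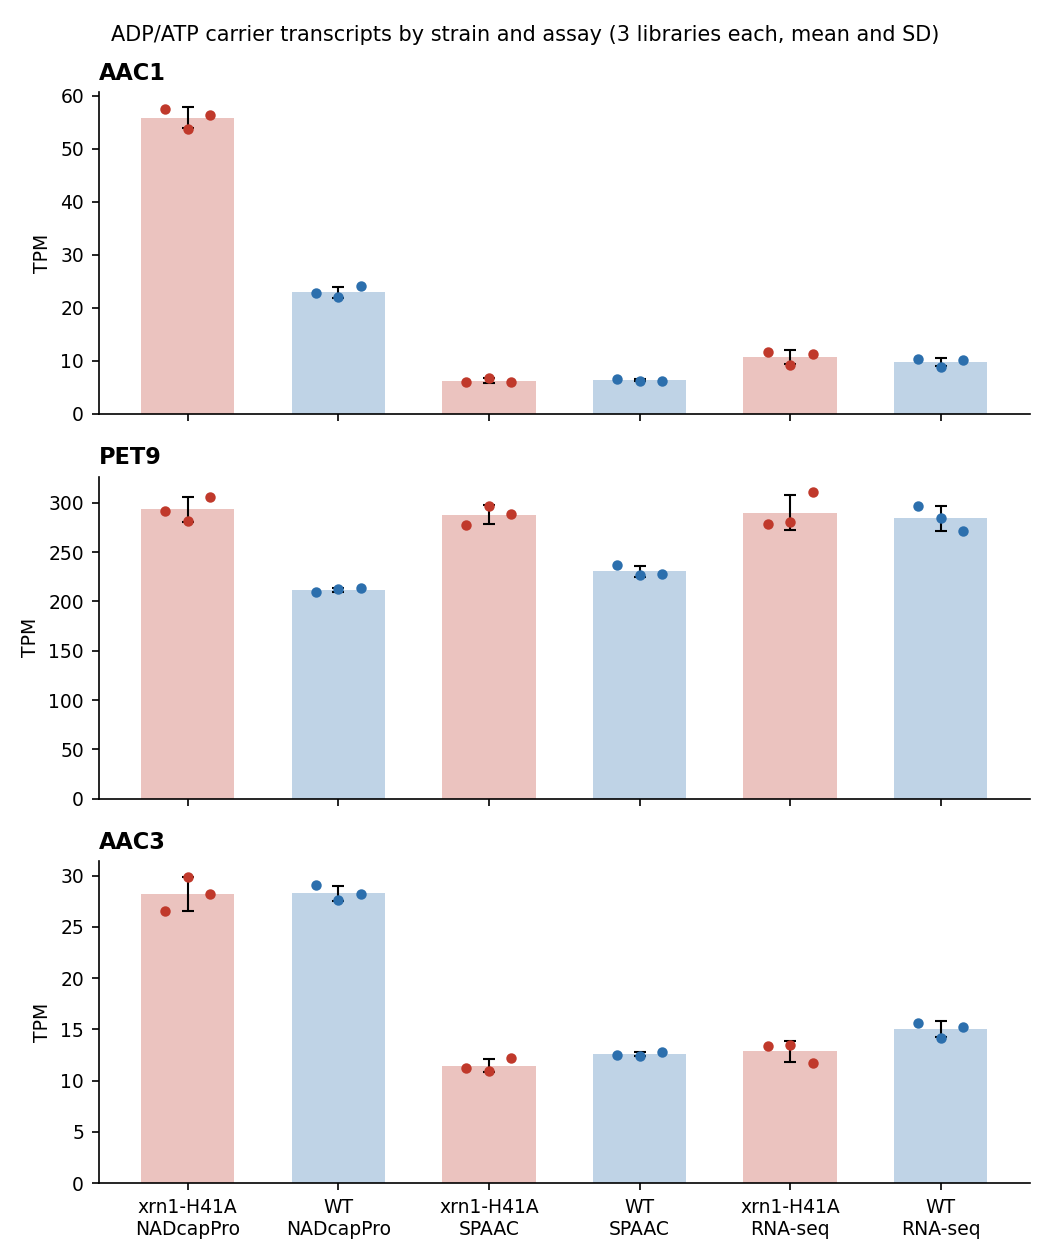
Level of AAC1, PET9 and AAC3 (TPM, linear axes from 0, a different range in each panel) in each library of the 6 strain and assay groups; points are libraries, bars are means and lines are SD (n = 3 each). AAC1 is highest in xrn1-H41A NADcapPro (mean 55.9 TPM) and next in WT NADcapPro (22.9 TPM), AAC3 is near 28 TPM in NADcapPro of both strains, and PET9 stays between 209 and 311 TPM.

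Ordered by mean level, AAC1 ran from 55.9 ± 1.95 TPM in xrn1-H41A NADcapPro (SD, n = 3 here and below) through 22.9 ± 1.05 in WT NADcapPro, 10.7 ± 1.26 in xrn1-H41A RNA-seq, 9.82 ± 0.776 in WT RNA-seq and 6.32 ± 0.165 in WT SPAAC to 6.24 ± 0.455 in xrn1-H41A SPAAC. Neighbours in this order overlapped between the RNA-seq groups and between the SPAAC groups. PET9 had means of 293 ± 12.3, 290 ± 18.1, 288 ± 9.60 and 284 ± 12.9 TPM in xrn1-H41A NADcapPro, xrn1-H41A RNA-seq, xrn1-H41A SPAAC and WT RNA-seq, each overlapping the next, and of 231 ± 5.49 in WT SPAAC and 212 ± 2.17 in WT NADcapPro, which overlapped no neighbour. The order of AAC3 was 28.3 ± 0.733 TPM in WT NADcapPro and 28.2 ± 1.70 in xrn1-H41A NADcapPro, which overlapped, then 15.0 ± 0.777 in WT RNA-seq, 12.9 ± 1.00 in xrn1-H41A RNA-seq, 12.6 ± 0.192 in WT SPAAC and 11.5 ± 0.655 in xrn1-H41A SPAAC. Of the neighbours in that lower part of the order, xrn1-H41A RNA-seq and WT SPAAC overlapped and the others did not, and xrn1-H41A RNA-seq also overlapped xrn1-H41A SPAAC.

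Which transcripts the assays enriched was asked by comparing NADcapPro and SPAAC with RNA-seq of their own strain in edgeR (quasi-likelihood test over all transcripts, scaled by TMM). Calls required a log2 change of 1 or more in size together with an adjusted p (Benjamini-Hochberg) not above 0.01. In xrn1-H41A NADcapPro over RNA-seq, 14.3% of 6046 transcripts were called higher and 9.87% lower. AAC1 (2.33 ± 0.07, log2 fold change ± SE here and below) and AAC3 (1.06 ± 0.07) lay past the fold threshold, and PET9 was at 0.05 ± 0.04. In WT NADcapPro over RNA-seq, 13.1% of 6020 transcripts were called higher and 9.85% lower. AAC1 (1.39 ± 0.07) and AAC3 (1.08 ± 0.05) lay past the fold threshold there too, and PET9 was at -0.19 ± 0.04. AAC3 lay just past the fold threshold in both strains. It was below it, at 0.79 in xrn1-H41A and 0.74 in WT, once the trend of each library on transcript length was taken out, and at 0.99 in xrn1-H41A without RNA-seq replicate 3. Counted as 1 feature, the summed family was at 0.29 in xrn1-H41A and -0.01 in WT.

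None of the 3 reached the fold threshold in SPAAC over RNA-seq. The shares called higher and lower were 4.39% and 13.8% of 5968 transcripts in xrn1-H41A, and 4.77% and 15.9% of 5979 in WT. AAC1 was at -0.13 ± 0.10 in xrn1-H41A and 0.02 ± 0.08 in WT. PET9 was at 0.63 ± 0.04 in xrn1-H41A and 0.33 ± 0.04 in WT. AAC3 was at 0.47 ± 0.09 in xrn1-H41A and 0.38 ± 0.06 in WT. These fitted values lie above the log2 ratios of the mean TPM. For PET9 and AAC3 the direction differed in both strains, with mean TPM lower in SPAAC than in RNA-seq and fitted values above 0. In WT, the means in SPAAC and RNA-seq were 231 and 284 TPM for PET9, and 12.6 and 15.0 TPM for AAC3. The cause of the gap was not tested. With library totals alone, which shifted the median transcript by -0.38 in xrn1-H41A and -0.31 in WT, AAC1 was at -0.51 and -0.29, and PET9 at 0.25 and 0.01.

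NADcapPro and SPAAC differ by the Dcs1 step, and AAC1 and PET9 went in opposite directions between them. AAC1 was at 2.29 ± 0.06 in xrn1-H41A NADcapPro over SPAAC, where 18.7% of 6039 transcripts were called higher and 17.8% lower. In WT it was at 1.22 ± 0.06, where 13.3% of 6017 transcripts were called higher and 11.3% lower. AAC3 was at 0.42 ± 0.07 in xrn1-H41A and 0.55 ± 0.05 in WT, under the threshold. PET9 was at -0.75 ± 0.03 in xrn1-H41A and -0.66 ± 0.03 in WT. With library totals alone the median transcript moved by 0.81 in xrn1-H41A and 0.61 in WT, PET9 was then at 0.06 and -0.06, and AAC3, at 1.23 and 1.15, lay past the fold threshold. At that scaling 2637 transcripts were called higher in xrn1-H41A and 1996 in WT, against 1128 and 802 with TMM. The sign for PET9 in xrn1-H41A therefore depended on the scaling. AAC1 lay above PET9 and AAC3 under both scalings. A change of scaling moves all transcripts by nearly the same amount, so it could not alter this order and does not test it.

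**Figure D2:**
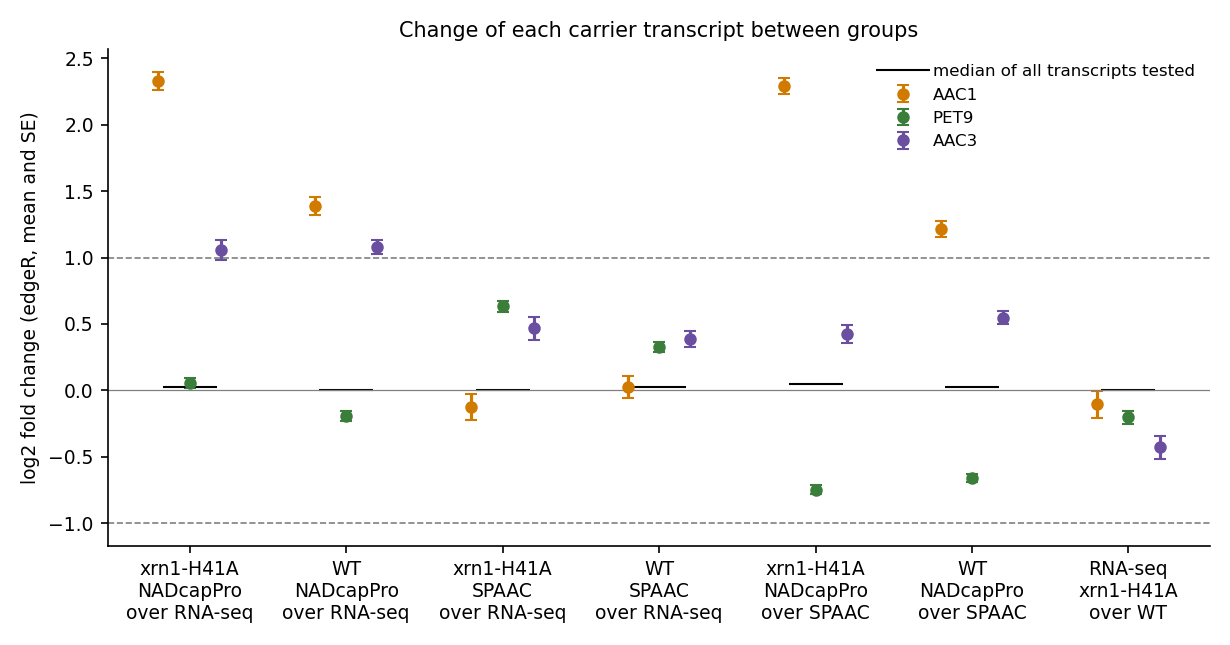
Log2 fold change (vertical axis, edgeR, points with SE, 3 libraries per group) of AAC1, PET9 and AAC3 in 7 comparisons; black lines mark the median of all transcripts tested and dashed lines a log2 fold change of 1 and -1. AAC1 lies highest in every NADcapPro comparison, up to 2.33 in xrn1-H41A over RNA-seq, and PET9 lies lowest in each of these.

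In standard RNA-seq none of the 3 reached the fold threshold between strains. In xrn1-H41A over WT, 7.69% of 5965 transcripts were called higher and 2.53% lower. AAC1 was at -0.11 ± 0.10, PET9 at -0.20 ± 0.05 and AAC3 at -0.43 ± 0.09. With library totals alone the median transcript moved by 0.18 and AAC1 was at 0.07, PET9 at -0.02 and AAC3 at -0.25. The strain difference in NADcapPro enrichment, positive where enrichment over RNA-seq was larger in xrn1-H41A, was 0.96 ± 0.10 for AAC1, 0.26 ± 0.06 for PET9 and -0.01 ± 0.09 for AAC3. Of 6059 transcripts, 4.19% were called higher and 2.94% lower by this interaction, and AAC1 stood above 94.3% of them but under the fold threshold. It was at 1.03 and so past the threshold without xrn1-H41A RNA-seq replicate 1, at 1.02 without WT RNA-seq replicate 2, at 1.06 with library totals alone and at 1.02 with the length trend taken out. The strain difference in SPAAC enrichment was -0.23 ± 0.13 for AAC1, 0.22 ± 0.06 for PET9 and -0.01 ± 0.10 for AAC3, where 0.0998% of 6010 transcripts were called higher and 0.566% lower.

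The ratio of 2 paralogs within a library does not depend on the scaling between libraries. AAC3 exceeded AAC1 in every SPAAC and RNA-seq library and in WT NADcapPro. The 2 were nearly equal in xrn1-H41A RNA-seq replicate 3, with 245 counts for AAC1 and 249 for AAC3. Only in xrn1-H41A NADcapPro, among the 6 groups, was AAC1 the higher, at 2.17, 1.80 and 2.00 times AAC3. The mean log2 ratio of AAC1 to AAC3 was 0.99 ± 0.14 (SD, n = 3) in xrn1-H41A NADcapPro, against -0.27 ± 0.25 in xrn1-H41A RNA-seq, and -0.30 ± 0.06 in WT NADcapPro, against -0.61 ± 0.05 in WT RNA-seq. In SPAAC it was -0.88 ± 0.17 in xrn1-H41A and -0.99 ± 0.05 in WT.

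Both minor forms gained on PET9 in NADcapPro. The log2 ratio of AAC1 to PET9 was -2.39 ± 0.05 in xrn1-H41A NADcapPro and -3.21 ± 0.06 in WT NADcapPro. It was -4.77 ± 0.17 in xrn1-H41A RNA-seq, -4.86 ± 0.13 in WT RNA-seq, -5.53 ± 0.07 in xrn1-H41A SPAAC and -5.19 ± 0.00431 in WT SPAAC. AAC3 relative to PET9 was at -3.38 ± 0.13 in xrn1-H41A NADcapPro and -2.90 ± 0.05 in WT NADcapPro, with no overlap with the other assays, which lay between -4.76 and -4.15. As a share of the summed TPM of the 3, PET9 made up 77.7 ± 0.623% in xrn1-H41A NADcapPro and 80.5 ± 0.483% in WT NADcapPro. In the other 4 groups its mean share was 94.2% (xrn1-H41A SPAAC), 92.4% (WT SPAAC), 92.5% (xrn1-H41A RNA-seq) and 92.0% (WT RNA-seq).

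**Figure D3:**
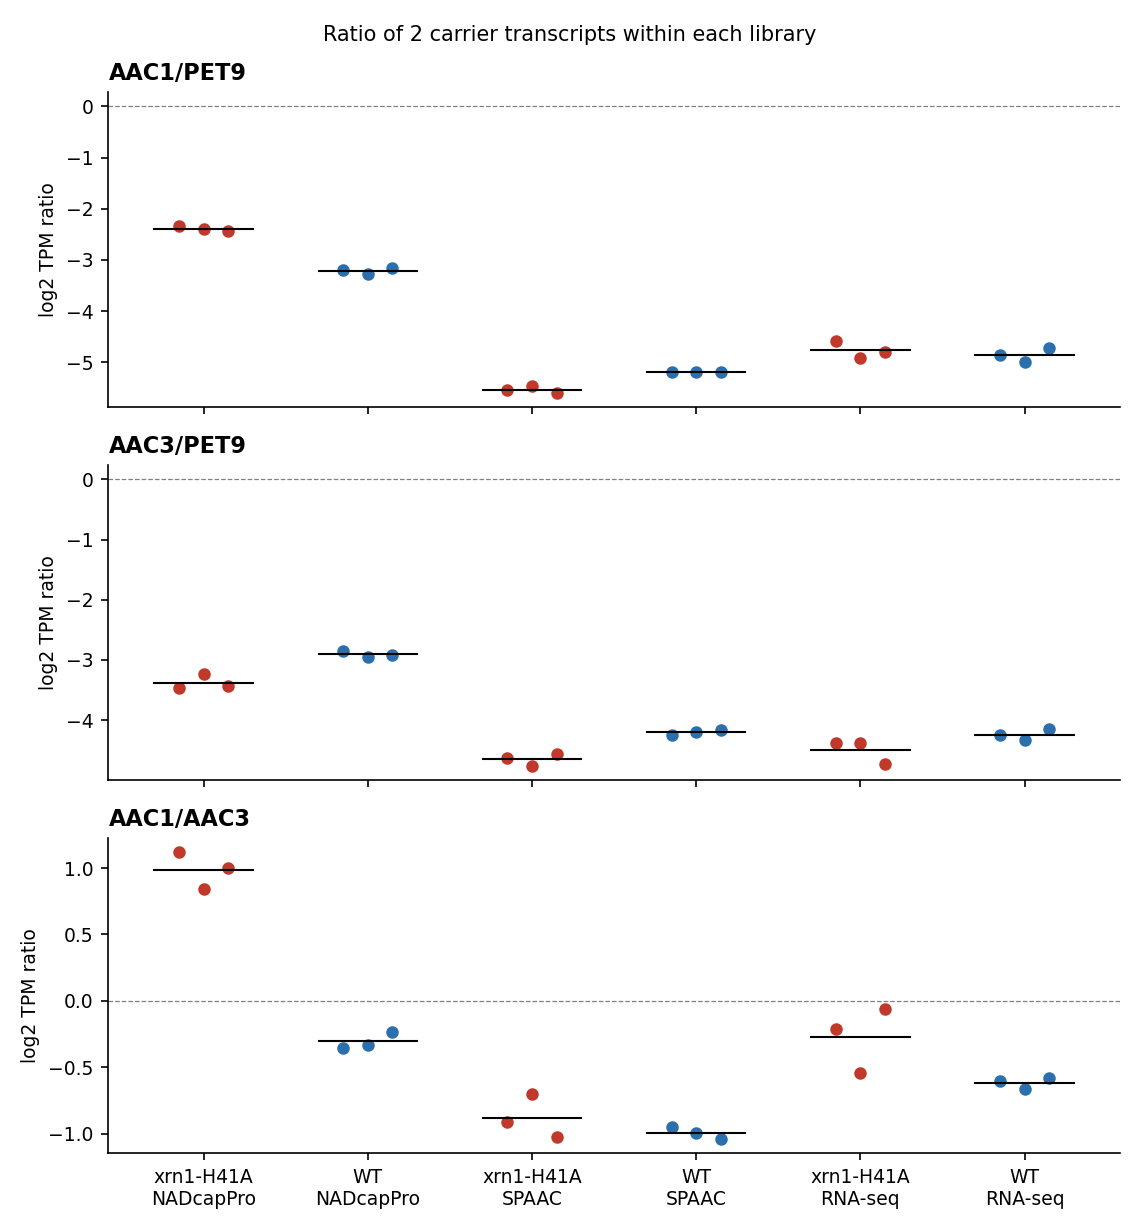
Log2 ratio of TPM between 2 paralogs within each library (vertical axis; points are libraries, black lines are means of 3). AAC1 over AAC3 lies above 0 only in xrn1-H41A NADcapPro (mean 0.99), and AAC3 over PET9 is highest in NADcapPro of both strains.

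AAC3 belongs to a set of yeast paralog pairs in which one form is known to be expressed with oxygen and the other without it. In WT NADcapPro over RNA-seq, all 4 aerobic forms listed had log2 fold changes below 0, namely CYC1 (-0.48 ± 0.05), COX5A (-0.45 ± 0.04), HMG1, a sterol pathway reductase (-0.38 ± 0.03), and HYP2, the translation factor eIF5A (-0.50 ± 0.04), beside -0.19 for PET9. Of the hypoxic forms, CYC7 (2.14 ± 0.13) and ANB1 (1.09 ± 0.06) were called higher, while COX5B (0.79 ± 0.04) and HMG2 (-0.46 ± 0.04) were not called. These 2 calls among the 8 genes stand beside 13.1% of all transcripts called higher, and the median over the 8 was -0.42, against 0.01 over all transcripts. In xrn1-H41A NADcapPro over RNA-seq, CYC7 (1.58 ± 0.16) was called higher, beside 14.3% of all transcripts, and the other 7 were not called. The hypoxic ANB1 was at 0.97 ± 0.14, COX5B at 0.63 ± 0.05 and HMG2 at -0.37 ± 0.04 in this strain. Its aerobic forms lay on both sides of 0, with HYP2 at 0.19 ± 0.03, CYC1 at 0.05 ± 0.07, COX5A at -0.35 ± 0.05 and HMG1 at -0.65 ± 0.04, and the median over the 8 was 0.12, against 0.02 over all transcripts.

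The ratio of the hypoxic form to its aerobic partner had a higher mean in NADcapPro than in RNA-seq in both strains for 3 of the 4 pairs, as it did for AAC3 and PET9. These ratios were added after the fitted values were seen. The log2 ratio of COX5B to COX5A, per kilobase of transcript, was 0.04 ± 0.03 in xrn1-H41A NADcapPro, against -0.94 ± 0.11 in xrn1-H41A RNA-seq, and 0.47 ± 0.01 in WT NADcapPro, against -0.77 ± 0.09 in WT RNA-seq. CYC7 to CYC1 was -1.49 ± 0.14 in xrn1-H41A NADcapPro, against -3.11 ± 0.44 in xrn1-H41A RNA-seq, and -1.52 ± 0.13 in WT NADcapPro, against -4.10 ± 0.26 in WT RNA-seq. ANB1 to HYP2 was -6.34 ± 0.17 in xrn1-H41A NADcapPro, against -7.15 ± 0.28 in xrn1-H41A RNA-seq, and -4.63 ± 0.05 in WT NADcapPro, against -6.22 ± 0.05 in WT RNA-seq. HMG2 to HMG1 had the higher mean in NADcapPro in xrn1-H41A but not in WT, at 0.17 ± 0.03 in xrn1-H41A NADcapPro, against -0.10 ± 0.07 in xrn1-H41A RNA-seq, and -0.15 ± 0.02 in WT NADcapPro, against -0.08 ± 0.10 in WT RNA-seq. In SPAAC, ANB1 to HYP2 (-6.66 ± 0.04 in xrn1-H41A and -5.52 ± 0.09 in WT) and CYC7 to CYC1 (-2.51 ± 0.17 and -3.76 ± 0.12) also had higher means than in RNA-seq, and ANB1 was called higher over RNA-seq (1.05 ± 0.14 in xrn1-H41A and 1.08 ± 0.07 in WT, beside 4.39% and 4.77% of all transcripts). COX5B to COX5A had lower means in SPAAC than in RNA-seq (-1.63 ± 0.11 in xrn1-H41A and -1.72 ± 0.08 in WT). AAC3 to PET9 on the same scale was at -4.60 ± 0.10 in xrn1-H41A SPAAC, against -4.45 ± 0.20 in xrn1-H41A RNA-seq, and -4.15 ± 0.04 in WT SPAAC, against -4.21 ± 0.09 in WT RNA-seq.

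The carriers form part of a larger family of inner membrane transporters, and 29 further members were listed. In xrn1-H41A NADcapPro over RNA-seq 7 of the 29 were called higher, beside 14.3% of all transcripts, with a median of 0.69 against 0.02 over all transcripts, and in WT 10 of the 29 were called higher, beside 13.1%, with a median of 0.76 against 0.01. With the length trend removed, all transcripts called higher fell from 867 to 629 in xrn1-H41A and from 787 to 456 in WT, and the 29 were not recounted. None was called lower in either strain by edgeR, beside 9.87% and 9.85% of all transcripts in xrn1-H41A and WT, or by DESeq2's Wald test, and 5 in xrn1-H41A and 4 in WT were lower at an unadjusted p under 0.05. Among the 32 carriers AAC1 had rank 2 in xrn1-H41A and rank 5 in WT, AAC3 rank 9 and rank 11, and PET9 rank 26 and rank 28. MTM1, a carrier linked to manganese and pyridoxal phosphate handling, had the highest value, 4.07 ± 0.05 in xrn1-H41A and 3.04 ± 0.04 in WT. PIC2, another phosphate and copper carrier, was at 0.81 ± 0.04 in xrn1-H41A and at 2.33 ± 0.04 in WT. The lowest values in WT were those of CRC1, a carnitine carrier (-0.996 ± 0.26, against 0.10 ± 0.13 in xrn1-H41A), and AGC1, an aspartate and glutamate carrier (-0.98 ± 0.05, against -0.57 ± 0.05 in xrn1-H41A).

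Of the carriers that act on NAD itself, YIA6 was called higher in NADcapPro over RNA-seq (1.43 ± 0.08 in xrn1-H41A and 1.88 ± 0.09 in WT), and its paralog YEA6 was not called (-0.17 ± 0.04 in xrn1-H41A and -0.42 ± 0.05 in WT). SAL1, an ATP-Mg and phosphate carrier whose role overlaps with that of PET9, was at 0.12 ± 0.06 in xrn1-H41A and 0.07 ± 0.07 in WT. MIR1, which supplies phosphate for ATP synthesis and is abundant like PET9, was at -0.90 ± 0.03 in xrn1-H41A and -0.82 ± 0.04 in WT. In SPAAC over RNA-seq only AGC1 of the 29 was called, lower, in each strain, beside 13.8% of all transcripts in xrn1-H41A and 15.9% in WT. The strain difference in NADcapPro enrichment was called for 3 of the 29, MTM1 (1.04 ± 0.06), CRC1 (1.11 ± 0.29) and PIC2 (-1.51 ± 0.05), that is 2 higher and 1 lower, beside 4.19% and 2.94% of all transcripts.

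**Figure D4:**
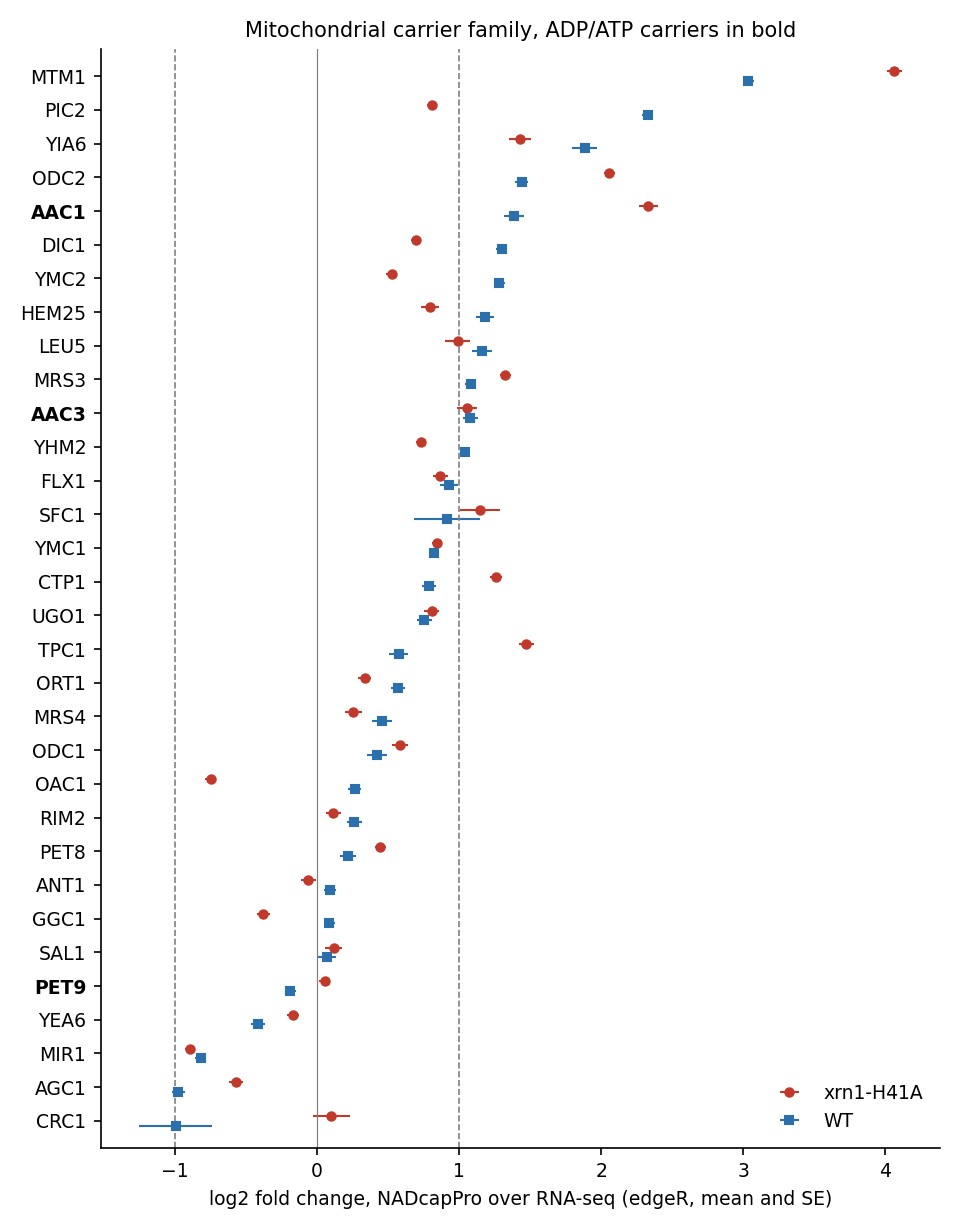
Log2 fold change in NADcapPro over RNA-seq (horizontal axis, edgeR, with SE) of the 29 other mitochondrial carriers and the 3 ADP/ATP carriers (bold), ordered by the WT value; red circles are xrn1-H41A, blue squares WT, and dashed lines mark 1 and -1. AAC1 (2.33 and 1.39) and AAC3 (1.06 and 1.08) lie in the upper part of the family in xrn1-H41A and WT, and PET9 (0.05 and -0.19) in the lower part.

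Genes for the proteins that insert carriers into the inner membrane were listed as well. Of 7 genes of the TIM22 pathway, TIM12, a small chaperone subunit, was called higher in NADcapPro over RNA-seq in both strains (2.28 ± 0.06 in xrn1-H41A and 2.20 ± 0.05 in WT), 1 of 7 beside 14.3% and 13.1% of all transcripts. TOM70, the receptor that takes up carrier precursors, was called lower in xrn1-H41A (-1.59 ± 0.04), beside 9.87% of all transcripts, and was at -0.93 in WT. The other named members were TIM22, the insertion channel (-0.09 in xrn1-H41A and 0.64 in WT), and TIM18, a subunit bound to it (0.24 in xrn1-H41A and -0.24 in WT).

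ATP synthase makes the ATP that the carriers export, and its nuclear-encoded subunits ran from below to above PET9. Of 15 genes, ATP18 was called higher in NADcapPro over RNA-seq in both strains (1.55 ± 0.06 in xrn1-H41A and 1.56 ± 0.05 in WT), 1 of 15 beside 14.3% and 13.1% of all transcripts. ATP2, the catalytic beta subunit, was called lower in both (-1.18 ± 0.03 in xrn1-H41A and -1.14 ± 0.03 in WT), and ATP1, the alpha subunit, in WT (-1.48 ± 0.03, with -0.97 in xrn1-H41A), so 1 of 15 was lower in xrn1-H41A and 2 in WT, beside 9.87% and 9.85%. TIM11 was at 0.68 in xrn1-H41A and 0.97 in WT. The median over the 15 was -0.53 in xrn1-H41A and -0.07 in WT. In NADcapPro over SPAAC, 8 of the 15 were called lower in xrn1-H41A and 4 in WT, beside 17.8% and 11.3% of all transcripts, and none was called higher by edgeR or DESeq2 (3 in xrn1-H41A and 2 in WT at an unadjusted p under 0.05 with a positive change). These counts rest on the scaling. With library totals alone, all transcripts called lower fell from 1072 to 318 in xrn1-H41A and from 680 to 196 in WT, and the 15 were not recounted.

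Across the 18 libraries of the 2 strains, the transcripts whose levels ran most like AAC1 (Pearson r of log2 TPM, 5792 transcripts compared) were AIM22 (0.993), YIP1, a membrane protein of vesicle transport (0.992), and the proline permease PUT4 (0.991). AAC3 was at 0.913 with AAC1, at rank 533. The closest to AAC3 were NIT3 of the nitrilase family (0.993), BOL2, a regulator of iron genes (0.992), and the mitochondrial ribosomal protein gene MRPS18 (0.992). PET9 ran most like ARO10, a decarboxylase of amino acid breakdown (0.956), PYK2, a minor pyruvate kinase (0.940), and GCN4, the activator of amino acid synthesis genes (0.933). It was at 0.04 with AAC1 and -0.30 with AAC3. The libraries share assay and strain in groups of 3, so these coefficients mostly describe the differences between groups.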

How the data were processed

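The authors trimmed reads with fastp 0.23.2, removed those that hisat2 aligned to rRNA and quantified the rest with Kallisto 0.48.0 on RefSeq transcripts of assembly R64. They deposited the estimated counts, rounded to whole numbers, with lengths and effective lengths for 6106 transcripts in 20 libraries. The 2 negative control libraries, planned for the paralog ratios, were looked at and then left out, because their names in the table tie them to no single sample. The deposited TPM column was not used, and TPM was recomputed from counts and effective lengths. The libraries were made with SMART-Seq HT and Nextera XT, and no strand setting is given in the sources used here.

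The members and lists were chosen with earlier results of these data known. Groups were compared in R 4.3.3 with edgeR 4.0.16 (glmQLFit, glmQLFTest, TMM, filterByExpr, only the libraries of the groups compared, Benjamini-Hochberg over all transcripts). The thresholds were the paper's. Standard errors were derived from the F statistic. On simulated counts the test recovered 200 of 200 changed transcripts with 0 false calls among 6020 in WT NADcapPro over RNA-seq. In the interaction it recovered 200 of 200 with 0 false calls among 6054. How the test performs near the fold threshold, or with another scaling or a length trend, was not tested. The methods describe 3 biological replicates per strain, and p-values measure the spread between these libraries.

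Named were the 3 carriers, YIA6, YEA6, MIR1, SAL1, the 2 highest and 2 lowest of each list in WT NADcapPro over RNA-seq, the 8 genes of the oxygen pairs, the 3 transcripts with the most similar pattern (log2 of TPM + 0.5, at least 10 counts in every library) and strain checks.
Alternatives were DESeq2 1.42.0 (size factors, Wald test, apeglm 1.24.0), library totals alone, no low-count filter, a minimum of 10 counts in every library, a joint fit of all 18 libraries, a block for replicate number, removal of the length trend (lowess, span 0.3), the 3 carriers summed, full transcript length in ratios, and each library left out in turn. Tables and figures were made with pandas 2.3.3, NumPy 2.4.6 and matplotlib 3.10.9 under Python 3.11.15.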

Additional observations from a re-analysis of the deposited data

Results flagged for a closer look

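The enrichment in NADcapPro over RNA-seq differed between the strains for 3 of the 29 other mitochondrial carriers, by edgeR's interaction test over all transcripts. By the same test 4.19% of 6059 transcripts were called higher and 2.94% lower. The difference on the log2 scale was 1.04 for MTM1 and 1.11 for CRC1, both with more enrichment in xrn1-H41A, and -1.51 for PIC2, with less enrichment in xrn1-H41A. The list of carriers was chosen with earlier results of these libraries known.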

How the results depend on the processing

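With the length trend removed, the number of the 3 ADP/ATP carriers past the fold threshold was 1 in xrn1-H41A NADcapPro over RNA-seq, 1 in WT NADcapPro over RNA-seq and 1 in the strain difference in NADcapPro enrichment, against 2, 2 and 0 as reported. Of all transcripts, 629, 456 and 220 were then called higher, against 867, 787 and 254. With library totals alone it was 2 in NADcapPro over SPAAC in each strain and 1 in the strain difference in NADcapPro enrichment, against 1, 1 and 0 as reported. With 1 library left out the number of the 3 past it ranged from 1 to 2 in xrn1-H41A NADcapPro over RNA-seq (1 without RNA-seq replicate 3) and from 0 to 1 in the strain difference in NADcapPro enrichment (1 without xrn1-H41A RNA-seq replicate 1 or WT RNA-seq replicate 2). Transcripts called higher ranged from 846 to 868 and from 200 to 256 in these 2 comparisons. The cause was not tested.

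Some signs turned. With the length trend removed, PET9 was at -0.20 in xrn1-H41A NADcapPro over RNA-seq, AAC1 at -0.32 in WT SPAAC over RNA-seq, and AAC3 at 0.054 in the strain difference in NADcapPro and 0.11 in that in SPAAC enrichment. With library totals alone, AAC1 was at -0.29 in WT SPAAC over RNA-seq and 0.075 in xrn1-H41A over WT RNA-seq, PET9 at 0.060 in xrn1-H41A NADcapPro over SPAAC, and AAC3 at 0.087 and 0.011 in the strain differences in NADcapPro and SPAAC enrichment. AAC3 was at 0.0037 in the strain difference in NADcapPro with at least 10 counts in every library, and in that in SPAAC at 0.068 with DESeq2's size factors and 0.071 with its Wald test. With 1 library left out, AAC1 in WT SPAAC over RNA-seq ranged from -0.036 to 0.077, and AAC3 from -0.080 to 0.045 in the strain difference in NADcapPro and from -0.052 to 0.14 in that in SPAAC enrichment. With full transcript lengths 3 of 18 mean ratios moved by more than their SD, AAC1 to PET9 at -5.10 in WT SPAAC and -5.45 in xrn1-H41A SPAAC and AAC3 to PET9 at -4.15 in WT SPAAC.

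The replicate block moved none of the 3 ADP/ATP carriers across the fold threshold. In NADcapPro over RNA-seq 2 of them lay past it in each strain, with AAC1 at 2.34 in xrn1-H41A and 1.39 in WT. Libraries of one number showed little shared deviation (r from -0.15 to 0.16). The deviations also hold the noise of each single library, so this cannot exclude that the numbers pair them.

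Transcripts called higher and lower with library totals alone were 1275 and 318 in xrn1-H41A and 992 and 403 in WT NADcapPro over RNA-seq (867 and 597, and 787 and 593, as reported), 46 and 1417 in xrn1-H41A and 71 and 1349 in WT SPAAC over RNA-seq (262 and 826, and 285 and 950), 2637 and 318 in xrn1-H41A and 1996 and 196 in WT NADcapPro over SPAAC (1128 and 1072, and 802 and 680), 672 and 97 in RNA-seq between strains (459 and 151), and 340 and 127 in the strain difference in NADcapPro enrichment (254 and 178). With the length trend removed, 456 were called higher in WT NADcapPro over RNA-seq, 76 higher and 310 lower in xrn1-H41A SPAAC over RNA-seq, 78 higher and 285 lower in WT SPAAC over RNA-seq, and 21 lower in the strain difference in SPAAC enrichment (34 as reported). With all 18 libraries in a joint fit, 172 were called higher in xrn1-H41A SPAAC over RNA-seq. In the strain difference in SPAAC enrichment 6 were called higher, against 11 with DESeq2's size factors and 13 with its Wald test.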
